A study of Mus musculus with 9 samples.

Results

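The integrated stress response and the unfolded protein response were followed through 36 genes in cerebral cortex of mouse embryos with and without knock-out of Sfpq, which encodes a nuclear RNA-binding protein. The genes were chosen by name, with earlier results of these data known. Only probe sets that the array's annotation assigns to 1 of them alone were used. All 36 had such probe sets, 532 in total, and all 36 passed the limit for dim signal, so 36 of the 16854 genes tested were members. RNA came from cortical tissue of embryos at E13.5 in 3 groups of 3: Sfpq-/-, Sfpq+/- and control embryos labelled wild type. Each sample was hybridised to 1 Affymetrix Mouse Exon 1.0 ST array, which reads a gene through several short probe sets. The labels name no Cre line, promoter or deleted exon and say nothing of litters, so whether the embryos are independent is not known. The p-values weigh differences between groups against the spread of arrays within groups.

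Cells answer amino acid shortage, misfolded protein in the endoplasmic reticulum and other stresses by phosphorylating the initiation factor eIF2. General translation then falls while the transcription factor Atf4 is translated more, and Atf4 turns on genes for amino acid synthesis, amino acid import, tRNA charging and, under lasting stress, Ddit3 (CHOP). Misfolded protein in the endoplasmic reticulum also acts through the sensors Ern1 (IRE1), which activates Xbp1 by splicing its mRNA, and Atf6, and these raise chaperones such as Hspa5 (BiP) and the machinery that removes misfolded proteins. In the developing cortex these pathways are known to be active in neural progenitors and to decline as neurogenesis proceeds.

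Values are log2 signals as deposited, and a gene's level is the mean of its kept probe sets. The median level of all probe sets differed little between arrays, from 5.65 to 5.70. Sfpq itself averaged 8.98 ± 0.27 in Sfpq-/-, 10.25 ± 0.24 in Sfpq+/- and 10.14 ± 0.23 in control cortex (SD, n = 3 each), and it fell in Sfpq-/- against control (log2 change -1.15, SE 0.16, limma adjusted p = 0.000787), to 0.450 of the control level. Signal thus remained in Sfpq-/- cortex, the deleted part of the gene is not stated in the labels, and protein was not measured. In Sfpq+/- against control no fall in Sfpq was seen (log2 change 0.12, SE 0.16, limma adjusted p = 0.9). The confidence interval of that change ran from -0.24 to 0.48, and the arrays of the groups overlapped. Sfpq signal thus did not set Sfpq+/- apart from control, so it gives no check of the Sfpq+/- label. Why no fall was seen was not tested. Of 7 cortical markers tested, Lhx2, Neurod6 and Eomes fell in Sfpq-/- against control at a limma adjusted p under 0.05, as did 6.12% of all genes. The other 4 did not pass: Emx1 differed by -0.18, Pax6 by 0.01, Tbr1 by 0.14 and Emx2 by 0.19 on the log2 scale. Xist, which is transcribed from the inactive X chromosome of female cells, read between 11.48 and 11.79 on arrays Sfpq-/- 1, control 1 and control 2, and between 4.90 and 5.87 on the other 6. All 3 Sfpq+/- arrays were thus in the low class, while the Sfpq-/- and control groups were mixed.

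In Sfpq-/- against control cortex 1 of the stress genes changed, and the largest difference of any was 1.28-fold. Of the 36 members, 1 rose and 0 fell at a limma adjusted p under 0.05, while 12.1% of all 16854 genes passed (5.98% higher and 6.12% lower). The gene that rose was Sars, seryl-tRNA synthetase, and its change was small (log2 change 0.23, 1.17-fold). The 36 log2 changes ran from -0.31 for Atf4 to 0.35 for Phgdh, with a median of 0.073 against 0.027 over all genes tested. They were positive for 28 members and negative for 8, that is for 77.8% of members and 56.8% of all genes positive. An unadjusted p under 0.05 was reached by 10 members, 27.8% of them, against 24.2% of all genes. The arrays of Sfpq-/- and control did not overlap for 8 members, 7 of them higher in Sfpq-/-, where 26.9% of all genes did not overlap (16.1% higher and 10.8% lower).

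The 95% intervals limit the size of change in the gene level, which is a mean of probe set signals. They do not cover the choice of probe set summary, which moved the values of Atf4 and Chac1. All 36 members had 95% intervals within a log2 change of 1 in either direction, a 2-fold change, as did 97.3% of all genes. For 30 of the 36 the interval lay within 0.5, a 1.41-fold change, as for 79.8% of all genes. The lowest bound was -0.59, for Atf4, and the highest was 0.63, for Phgdh. In tissue RNA, fewer cells of a type and less RNA per cell cannot be told apart.

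**Figure D1:**
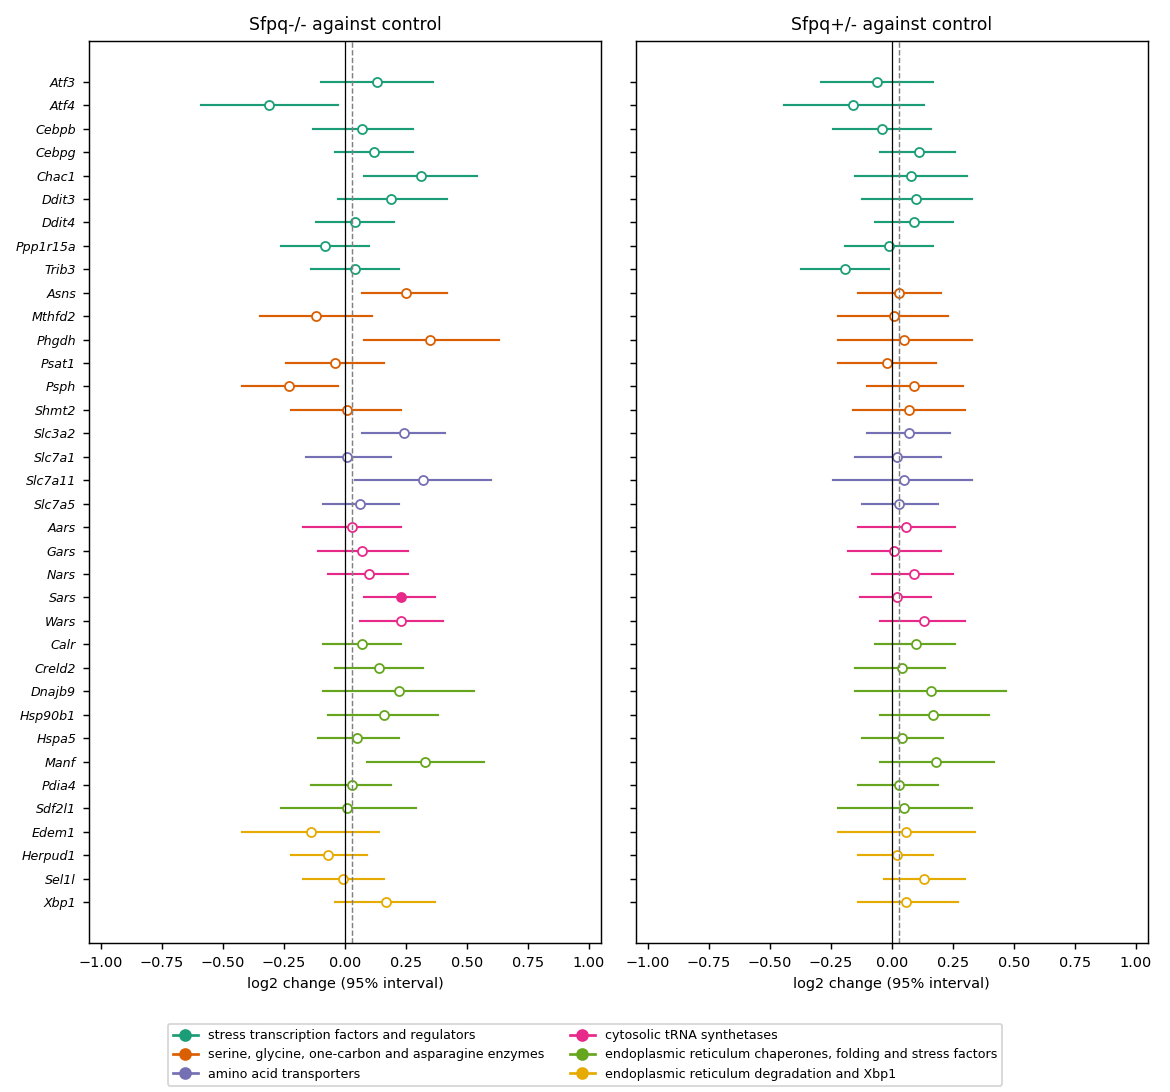
Log2 change (x axis) of each of the 36 genes (rows, coloured by role) with its 95% interval, for Sfpq-/- against control (left) and Sfpq+/- against control (right). The filled point is Sars, the 1 member with a limma adjusted p under 0.05, and the dashed line marks the median of all genes tested (0.027 left, 0.030 right). All intervals stay between -0.59 and 0.63.

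Promoter sequences show which members carry the sites that these pathways are known to use. The members were chosen by name as genes of these pathways. A higher share of such sites than among all promoters was thus built into the choice and is not a result of these data. RefSeq promoters of assembly GRCm38.p6, from 250 bases before to 50 bases after each start site, were found for 32 members, 34 promoters in all because some members have more than 1 start site. Slc7a5, Nars, Manf and Wars were not matched. The C/EBP-ATF response element (CARE), bound by Atf4 with a C/EBP partner, was searched as TGATGCAA or TGATGAAA on both strands. It was present in 7 of the 34 member promoters (20.6%) and in 624 of 32851 promoters of the same length (1.9%). The 7 genes were Aars, Asns, Atf3, Chac1, Gars, Herpud1 and Slc7a11. Of these, 3 amino acid and glutathione genes are printed because they had the largest changes of the 7 in Sfpq-/- against control, though none passed. Being picked by their changes, they do not link the element to a change. The letters run 5′ to 3′ along the gene with the CARE core in capitals. The promoters lie at chr2:119350992-119351291 (plus strand), chr6:7693160-7693459 (minus strand) and chr3:50443564-50443863 (minus strand).
Chac1: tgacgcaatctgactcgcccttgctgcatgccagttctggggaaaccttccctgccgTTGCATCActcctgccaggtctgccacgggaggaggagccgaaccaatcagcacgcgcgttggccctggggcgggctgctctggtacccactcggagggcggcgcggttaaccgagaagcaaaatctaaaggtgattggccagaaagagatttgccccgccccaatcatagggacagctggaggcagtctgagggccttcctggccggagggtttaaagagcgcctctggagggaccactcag
Asns: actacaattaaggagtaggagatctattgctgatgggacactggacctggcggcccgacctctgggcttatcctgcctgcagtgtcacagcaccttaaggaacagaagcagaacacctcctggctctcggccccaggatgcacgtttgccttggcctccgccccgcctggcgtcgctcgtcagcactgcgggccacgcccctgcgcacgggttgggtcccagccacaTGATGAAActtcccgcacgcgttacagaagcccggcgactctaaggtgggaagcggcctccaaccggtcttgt
Slc7a11: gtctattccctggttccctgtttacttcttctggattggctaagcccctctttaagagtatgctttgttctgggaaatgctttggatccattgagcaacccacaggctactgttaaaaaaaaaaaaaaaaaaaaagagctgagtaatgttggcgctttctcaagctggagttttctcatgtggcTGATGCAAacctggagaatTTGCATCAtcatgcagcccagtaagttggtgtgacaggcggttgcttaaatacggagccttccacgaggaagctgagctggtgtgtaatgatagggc
The core starts 193 bases before the start site in Chac1 and reads on the opposite strand, so it appears as TTGCATCA. In Asns it starts 23 bases before the start site, and Slc7a11 has 1 core on each strand, 66 and 47 bases before it.

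The endoplasmic reticulum stress response element (ERSE), bound by Atf6 with NF-Y, was searched as CCAAT, 9 bases of any kind and CCACG, and the related ERSE-II as ATTGG, 1 base and CCACG, both on either strand. They share the CCACG end. One or the other was present in 5 of the 34 member promoters (14.7%), those of Calr, Creld2, Hsp90b1, Hspa5 and Herpud1, and in 51 of all 32851 (0.155%). Promoters of 3 chaperone and degradation genes are printed because they hold these elements, and none of these genes passed in any comparison. Capitals mark CCAAT or ATTGG and CCACG, or their complements ATTGG and CGTGG on the opposite strand, and in Herpud1 also the CARE core. They lie at chr2:34771840-34772139 (plus strand), chr10:86705395-86705694 (minus strand) and chr8:94386179-94386478 (plus strand).
Hspa5: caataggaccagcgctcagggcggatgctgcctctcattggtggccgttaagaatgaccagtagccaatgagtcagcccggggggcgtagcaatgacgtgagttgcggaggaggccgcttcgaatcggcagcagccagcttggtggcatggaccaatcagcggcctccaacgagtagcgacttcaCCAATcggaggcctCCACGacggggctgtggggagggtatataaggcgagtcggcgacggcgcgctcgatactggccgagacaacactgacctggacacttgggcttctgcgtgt
Hsp90b1: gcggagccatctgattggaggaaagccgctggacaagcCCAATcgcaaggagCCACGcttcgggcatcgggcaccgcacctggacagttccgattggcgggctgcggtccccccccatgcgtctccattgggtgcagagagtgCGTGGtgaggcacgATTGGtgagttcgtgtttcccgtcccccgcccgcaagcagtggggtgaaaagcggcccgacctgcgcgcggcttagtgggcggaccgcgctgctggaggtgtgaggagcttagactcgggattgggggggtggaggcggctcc
Herpud1: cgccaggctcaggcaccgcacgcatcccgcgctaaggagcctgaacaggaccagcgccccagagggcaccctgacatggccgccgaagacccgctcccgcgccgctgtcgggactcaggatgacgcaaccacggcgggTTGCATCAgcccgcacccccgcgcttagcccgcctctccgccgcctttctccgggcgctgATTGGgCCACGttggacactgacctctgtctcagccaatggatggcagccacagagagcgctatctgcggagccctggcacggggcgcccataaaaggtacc
Hsp90b1 has 1 element on each strand. Herpud1 has the ERSE-II and, 112 bases before its start site, a CARE core, and the elements do not overlap.

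The unfolded protein response element core bound by Xbp1 and Atf6, TGACGTGG, was in 0 of the 34 member promoters and in 0.676% of all. A cAMP response element, TGACGTCA, was in 1, that of Ppp1r15a, and in 1.79% of all, and it shares its first 6 letters with the unfolded protein response element core. Any of the 6 motifs was found in 12 member promoters (35.3%) and in 4.48% of all. Atf4, Ddit3, Xbp1, Trib3, Phgdh, Psph, Slc3a2 and Sars had none in this window. The promoter of Sars, the member that rose, lies at chr3:108445210-108445509 (minus strand) and is printed in lower case throughout because no motif was found.
Sars: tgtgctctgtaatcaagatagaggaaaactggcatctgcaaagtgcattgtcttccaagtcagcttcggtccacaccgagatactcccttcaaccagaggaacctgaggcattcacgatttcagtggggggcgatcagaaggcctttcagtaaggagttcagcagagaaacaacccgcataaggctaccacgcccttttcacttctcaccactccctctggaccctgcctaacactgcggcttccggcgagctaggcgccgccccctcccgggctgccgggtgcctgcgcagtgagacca
A match describes the letters and not a bound site, and sites outside the window, such as those in introns, were not searched.

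The 7 genes with a CARE core had a median log2 change of 0.13 in Sfpq-/- against control, from -0.07 to 0.32, with 6 of 7 positive and 0 past the test. The 25 members with a promoter and no CARE core had a median of 0.04. For the 5 genes with an ERSE or ERSE-II the median was 0.07, from -0.07 to 0.16, and 0 passed. The other 27 members with a promoter had 0.04.

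Among the 9 transcription factors and stress regulators, 0 passed in Sfpq-/- against control and the median log2 change was 0.074. Atf4, the central transcription factor of the response, read 9.17, 9.71 and 9.45 in Sfpq-/-, 9.73, 9.56 and 9.50 in Sfpq+/-, and 9.63, 9.87 and 9.76 in control cortex. The Sfpq-/- array 2 lay within the control range and the other 2 below it. The log2 change against control was -0.31 (SE 0.13, limma adjusted p = 0.165), and 5 of its 6 kept probe sets were negative. The 4 brightest changed by -0.61 to -0.40, and the positive one (0.39) was the dimmest kept, at 6.45 in Sfpq-/- and 6.06 in control cortex. The value depended on the arrays: it was -0.44 without Sfpq-/- 2 (adjusted p = 0.0341), -0.17 without Sfpq-/- 1 (adjusted p = 0.497) and -0.56 with array weights (adjusted p = 0.00222). With the median of its probe sets as the level on each array the change was -0.48 (adjusted p = 0.107). Atf4 activity is set mainly by translation of its mRNA, which the array does not measure.

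Ddit3, the CHOP transcription factor that promotes cell death under lasting stress, read 7.46, 7.43 and 7.66 in Sfpq-/-, 7.49, 7.38 and 7.41 in Sfpq+/-, and 7.35, 7.50 and 7.12 in control cortex. The groups overlapped, and the log2 change of Sfpq-/- against control was 0.19 (SE 0.10, limma adjusted p = 0.291). With the median in place of the mean of its probe sets the change was 0.38 and the adjusted p 0.0488. Chac1, an enzyme that degrades glutathione and a target of the Atf4 and Ddit3 axis, read 8.67, 8.25 and 8.64 in Sfpq-/-, 8.29, 8.26 and 8.31 in Sfpq+/-, and 8.21, 8.25 and 8.16 in control cortex. Arrays Sfpq-/- 1 and 3 were the 2 highest of the 9, and Sfpq-/- 2 was at the level of control 2. Its log2 change was 0.31 (SE 0.10, limma adjusted p = 0.082). Its probe sets differed in size and sign: of 7, 5 were positive, from 0.13 to 0.90, and 2 were at -0.18 and -0.19. When the gene's level on each array was the median of its probe sets and not their mean, the change was -0.06. That is not the median of the 7 changes. With the mean, leaving out 1 array gave changes from 0.24 to 0.45. Chac1 passed in 1 of these 6 fits, the one without Sfpq-/- 2 (0.45, limma adjusted p = 0.00264).

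The other regulators had smaller values. Atf3, an early stress transcription factor, differed by 0.13 and Cebpg, a C/EBP partner of Atf4, by 0.12, and all 3 kept Cebpg probe sets were positive. Cebpb differed by 0.07. Trib3, a pseudokinase that damps Atf4 signalling, and Ddit4, an inhibitor of mTORC1 signalling, differed by 0.04 each. Ppp1r15a (GADD34), the phosphatase subunit that reverses eIF2 phosphorylation, differed by -0.08.

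Enzymes of serine, glycine, one-carbon and asparagine synthesis went both ways, with 0 of 6 past the test and a median of -0.016. Asns, asparagine synthetase, read 10.39, 10.47 and 10.37 in Sfpq-/-, 10.13, 10.29 and 10.16 in Sfpq+/-, and 10.24, 10.19 and 10.06 in control cortex. Each Sfpq-/- array was above each array of both other groups, and 15 of its 16 probe sets were positive. The log2 change against control was 0.25 (SE 0.08, limma adjusted p = 0.0721).

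Phgdh, which catalyses the first step of serine synthesis, had the largest positive value of the members. It read 10.89, 10.89 and 10.50 in Sfpq-/-, 10.52, 10.53 and 10.33 in Sfpq+/-, and 10.55, 10.47 and 10.20 in control cortex. Array 3 was the lowest of its group in all 3 groups, and Sfpq-/- 3 lay within the control range. The log2 change was 0.35 (SE 0.13, limma adjusted p = 0.105), with all 22 probe sets positive, from 0.11 to 0.95. Leaving out 1 array gave changes from 0.25 to 0.48. Phgdh passed in 1 of these 6 fits, the one without Sfpq-/- 3 (0.48, adjusted p = 0.0172).

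Psph, which catalyses the last step of the same pathway, had the opposite sign. It read 8.39, 8.49 and 8.20 in Sfpq-/-, 8.62, 8.79 and 8.64 in Sfpq+/-, and 8.61, 8.60 and 8.56 in control cortex. All 3 Sfpq-/- arrays were below the other 6, and 8 of 10 probe sets were negative. The log2 change against control was -0.23 (SE 0.09, limma adjusted p = 0.137). Psat1, the enzyme between Phgdh and Psph, differed by -0.04, and the mitochondrial one-carbon enzymes Shmt2 and Mthfd2 by 0.01 and -0.12.

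The 4 amino acid transporters all had positive values in Sfpq-/- against control, and 0 passed (median log2 change 0.153). All 4 were positive in Sfpq+/- against control too (median 0.039), and 3 of 4 in Sfpq-/- against Sfpq+/- (median 0.101). Slc3a2, the heavy chain shared by several transporters, read 12.09, 12.11 and 12.03 in Sfpq-/-, 11.96, 11.94 and 11.82 in Sfpq+/-, and 11.88, 11.90 and 11.73 in control cortex. Each Sfpq-/- array was above the other 6, and the log2 change against control was 0.24 (SE 0.08, limma adjusted p = 0.0665). All 13 kept probe sets were positive. The dimmest of them differed by 0.94 and the other 12 by 0.07 to 0.31.

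Slc7a11, the cystine import chain that pairs with Slc3a2, averaged 9.0 ± 0.24 in Sfpq-/-, 8.73 ± 0.07 in Sfpq+/- and 8.68 ± 0.20 in control cortex (SD, n = 3 each), with 20 of 20 kept probe sets positive. Its log2 change was 0.32 (limma adjusted p = 0.152), and array Sfpq-/- 3, at 8.80, lay within the control range of 8.50 to 8.90. Slc7a5, the large neutral amino acid chain that also pairs with Slc3a2, differed by 0.06, and the arginine and lysine carrier Slc7a1 by 0.01.

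All 5 cytosolic tRNA synthetases had positive values in Sfpq-/- against control, and 1 rose (median log2 change 0.099). All 5 were positive in Sfpq+/- against control too (median 0.063), and 4 of 5 in Sfpq-/- against Sfpq+/- (median 0.062). Sars read 11.29, 11.27 and 11.30 in Sfpq-/-, 11.07, 11.08 and 11.06 in Sfpq+/-, and 11.09, 11.09 and 10.99 in control cortex. The Sfpq-/- arrays were tightly grouped above all the others, and Sfpq+/- and control overlapped. The log2 change of Sfpq-/- against control was 0.23 (SE 0.07, 95% interval 0.08 to 0.37, limma adjusted p = 0.0453), and all 28 kept probe sets were positive. The call was marginal: it was lost in each of the 6 fits that left out 1 array, with log2 changes from 0.20 to 0.24 and adjusted p from 0.0604 to 0.155. It held in 4 of 9 other settings, and with Xist as a covariate the change was 0.25 with an adjusted p of 0.056.

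Wars, tryptophanyl-tRNA synthetase, read 11.20, 11.04 and 11.00 in Sfpq-/-, 11.00, 11.01 and 10.92 in Sfpq+/-, and 10.91, 10.83 and 10.81 in control cortex. The lowest Sfpq-/- array was above the highest control array, and the Sfpq+/- arrays lay between or beside them. The log2 change of Sfpq-/- against control was 0.23 (SE 0.08, limma adjusted p = 0.0908), and all 15 kept probe sets were positive. Nars, Gars and Aars, the enzymes for asparagine, glycine and alanine, differed by 0.10, 0.07 and 0.03.

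**Figure D2:**
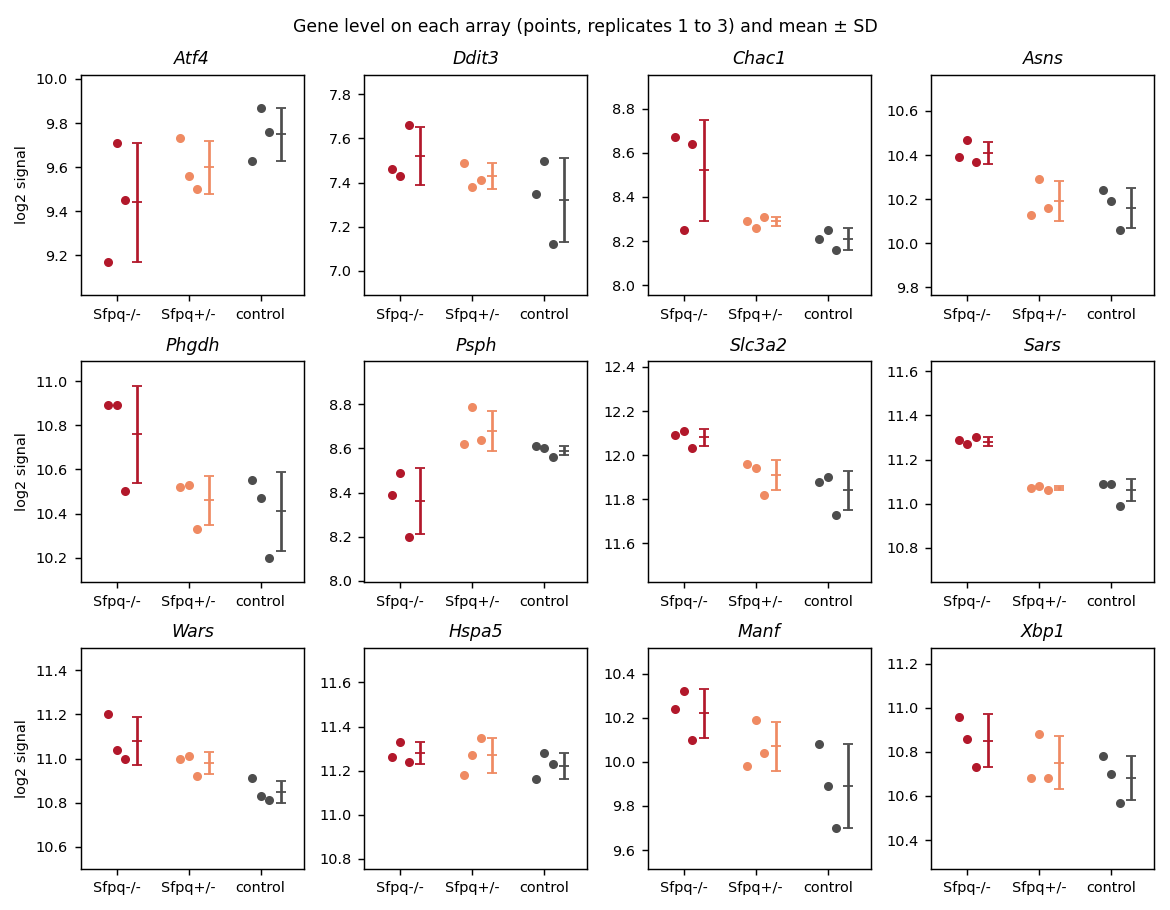
Gene level in log2 signal (y axis) on each array for 12 members, in Sfpq-/- (red), Sfpq+/- (orange) and control (grey) cortex, with mean ± SD over 3 arrays beside the points. Each panel spans the same height on the log2 scale but starts at a different level. The Sfpq-/- points lie above all others for Asns, Slc3a2 and Sars and below all others for Psph, while the groups overlap for Hspa5 and Xbp1.

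The 8 chaperones and folding factors of the endoplasmic reticulum all had small positive values in Sfpq-/- against control and 0 passed, with a median of 0.104. All 8 were positive in Sfpq+/- against control too (median 0.075). In Sfpq-/- against Sfpq+/- 4 were positive and 4 negative (median 0.005). Hspa5, the BiP chaperone and the usual readout of the unfolded protein response, read 11.26, 11.33 and 11.24 in Sfpq-/-, 11.18, 11.27 and 11.35 in Sfpq+/-, and 11.16, 11.28 and 11.23 in control cortex. The 3 groups overlapped throughout. The log2 change of Sfpq-/- against control was 0.05 (SE 0.07, 95% interval -0.11 to 0.22, limma adjusted p = 0.739), and it stayed between 0.01 and 0.09 in all alternative fits.

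Manf, a secreted factor induced by stress in the endoplasmic reticulum, had the largest value of these 8. It read 10.24, 10.32 and 10.10 in Sfpq-/-, 9.98, 10.19 and 10.04 in Sfpq+/-, and 10.08, 9.89 and 9.70 in control cortex. The lowest Sfpq-/- array was just above the highest control array. The log2 change was 0.33 (SE 0.11, limma adjusted p = 0.0735), with all 7 kept probe sets positive, from 0.04 to 0.72. Leaving out 1 array gave changes from 0.24 to 0.42, and Manf passed in 2 of these 6 fits. They were those without control 1 (0.42, adjusted p = 0.0304) and without Sfpq-/- 3 (0.39, adjusted p = 0.0447).

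The Hspa5 cochaperone Dnajb9 (ERdj4) differed by 0.22 with an interval from -0.09 to 0.53, and its 7 probe sets were all positive. Hsp90b1 (GRP94), the Hsp90 of the endoplasmic reticulum, differed by 0.16 in Sfpq-/- and by 0.17 in Sfpq+/-, each against control. Creld2, a stress-induced resident factor, differed by 0.14, and the calcium-binding lectin chaperone Calr by 0.07. Pdia4, a disulphide isomerase, and Sdf2l1, a cofactor of the Hspa5 cycle, differed by 0.03 and 0.01.

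Genes of the degradation branch and Xbp1 gave 0 calls of 4 and a median of -0.037. Xbp1, the transcription factor activated by Ern1, read 10.96, 10.86 and 10.73 in Sfpq-/-, 10.68, 10.88 and 10.68 in Sfpq+/-, and 10.78, 10.70 and 10.57 in control cortex. The groups overlapped, and the log2 change was 0.17 (SE 0.09, limma adjusted p = 0.317). Gene level does not separate its spliced and unspliced mRNA. Edem1, which sends misfolded glycoproteins to degradation, differed by -0.14 with all 18 kept probe sets negative, from -0.29 to -0.01 (adjusted p = 0.575). Herpud1 and Sel1l, parts of the ubiquitin ligase complex that exports misfolded proteins, differed by -0.07 and -0.01.

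At the level of single probe sets 0 of 508 kept member probe sets passed in Sfpq-/- against control, with a lowest limma adjusted p of 0.135, while 1.75% of all 628415 kept probe sets passed, most of which carry no gene symbol. Of the 253544 kept probe sets with 1 gene symbol, as the member probe sets are, 3.12% passed. An unadjusted p under 0.05 was reached by 34 member probe sets (6.69%), against 14.5% of those with 1 symbol. The sign was positive for 343 of the 508 (67.5%), against 54.2%. Probe sets of 1 gene share its transcripts and arrays and are not replicates. Positive signs ran through whole genes: every kept probe set was positive in Sars, Phgdh, Slc7a11, Wars, Slc3a2, Dnajb9, Manf and Cebpg, and every one was negative in Edem1. The share of all genes whose kept probe sets have 1 sign is not given here, so these runs cannot be set against it.

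**Figure D3:**
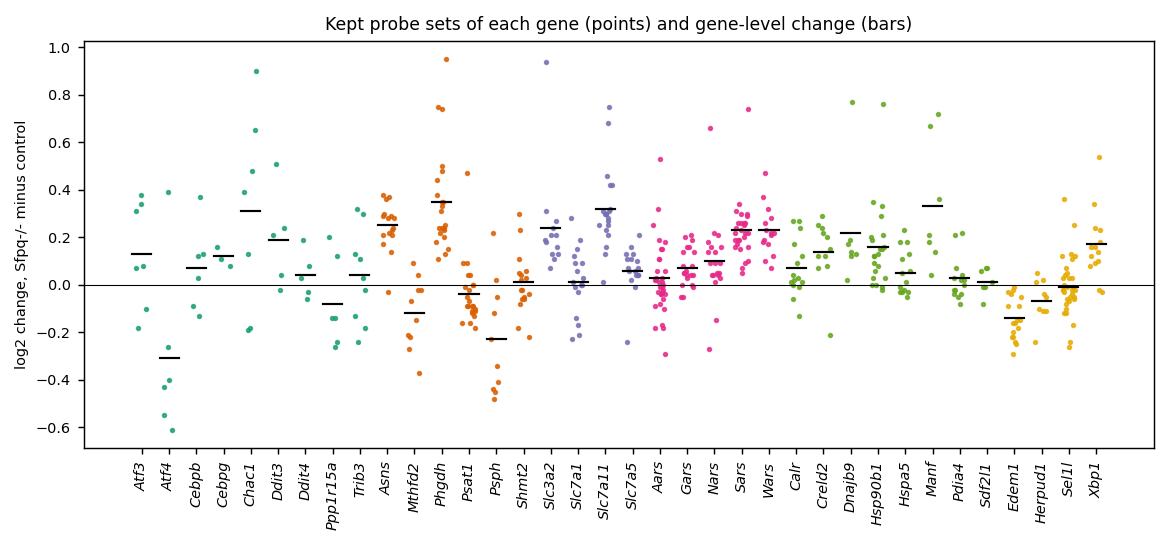
Log2 change of Sfpq-/- minus control (y axis) for each of the 508 kept probe sets (points), by gene and coloured by role as in the plot of changes with intervals, with black bars at the gene-level change. Points of Sars, Phgdh and Slc7a11 lie above 0 throughout and those of Edem1 below it, while Chac1 spreads from -0.19 to 0.90.

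The positive values were not spread evenly over the arrays. Each member's level was set against its mean over the 9 arrays. The median of these deviations was 0.069, 0.085 and -0.037 on the 3 Sfpq-/- arrays, -0.013, 0.034 and -0.024 on the Sfpq+/- arrays, and -0.017, -0.030 and -0.124 on the control arrays. Control 3 was the lowest, with 8 of 36 members above their mean, and Sfpq-/- 3 had 15, against 26 on each of Sfpq-/- 1 and 2. Over all genes the same 2 arrays were the lowest of their groups, at -0.023 for Sfpq-/- 3 and -0.043 for control 3.

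In Sfpq+/- against control cortex 0 of 36 members passed, as did 0% of all 16854 genes in limma. An unadjusted p under 0.05 was reached by 1 member (2.78%), against 715 of all genes (4.24%). That member was Trib3, at 6.83, 7.0 and 7.08 in Sfpq+/- and 7.09, 7.15 and 7.23 in control cortex, with each Sfpq+/- array below each control array (log2 change -0.19, limma unadjusted p = 0.0425). Of the 36 members 30 were positive, 83.3% against 61.2% of all genes, with a median of 0.054 against 0.030. That median ran from 0.016 (without control 3) to 0.084 (without control 1) when an array was left out, was 0.027 without Sfpq+/- 2, and was 0.118 with Xist as a covariate, all 3 Sfpq+/- arrays being low in Xist. The values ran from -0.19 for Trib3 to 0.18 for Manf. All 36 intervals lay within 0.5 on the log2 scale, the widest bound being 0.47 for Dnajb9, as did those of 92.3% of all genes. The arrays did not overlap for 7 members, 6 of them higher in Sfpq+/-, and for 12.5% of all genes (8.52% higher and 3.99% lower).

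Sfpq-/- against Sfpq+/- cortex shares its Sfpq-/- arrays with the first comparison. Of the members 0 rose and 1 fell, against 4.58% of all genes higher and 7.25% lower, 11.8% in total. Psph was the gene that fell (log2 change -0.32, limma adjusted p = 0.0373), and its Sfpq-/- and Sfpq+/- arrays did not overlap. In all, 7 members did not overlap, 6 higher and 1 lower in Sfpq-/-, against 13.2% of all genes higher and 13.6% lower (26.9% in total). That call held in 1 of 6 when each array was dropped in turn (without Sfpq-/- 2), and the change ran from -0.39 to -0.24. It held in 3 of 9 other settings. Sars differed by 0.21 with an adjusted p of 0.0629. The median over members was 0.011, against 0.026 over all genes, and 7 members (19.4%) had an unadjusted p under 0.05, against 22.6% of all.

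Other genes of the same or related stress pathways were taken from 5 lists of 98 genes that are not members, of which 93 were tested. They are called other pathway genes here. The lists also hold chaperones of the cytosol and mitochondria, which are not part of the endoplasmic reticulum. In Sfpq-/- against control 8 rose and 3 fell, with a median log2 change of 0.113, so 11 of 93 passed where 12.1% of all genes did. In Sfpq+/- against control 0 of the 93 passed.

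Among amino acid and stress targets 3 of 23 rose and 2 fell. Over all genes 5.98% rose and 6.12% fell, the shares to set beside this and the following lists. The largest changes of the other pathway genes were here and among the cytosolic and mitochondrial chaperones. Sesn2, a stress-induced sensor that restrains mTORC1, read 8.75, 8.48 and 8.46 in Sfpq-/-, 7.84, 7.93 and 7.93 in Sfpq+/-, and 7.81, 7.98 and 7.87 in control cortex, and it rose 1.60-fold against control (limma adjusted p = 0.000557). Slc6a9, a glycine transporter, read 10.14, 10.11 and 10.01 in Sfpq-/-, 9.51, 9.63 and 9.49 in Sfpq+/-, and 9.46, 9.44 and 9.51 in control cortex, and it rose 1.53-fold (adjusted p = 0.000233). The Sfpq-/- arrays of both genes stood clear of the other 6. The mitochondrial PEP carboxykinase Pck2 rose by 0.33 on the log2 scale (adjusted p = 0.0173). The mitochondrial folate enzyme Aldh1l2 fell by 0.40 on the log2 scale (adjusted p = 0.0118) and the stress-responsive Ndrg1 fell by 0.48 (adjusted p = 0.0166).

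Among sensors and initiation factors 2 of 22 rose and 1 fell. The subunit gene Eif2b3 of the exchange factor that eIF2 phosphorylation blocks rose by 0.41 on the log2 scale (limma adjusted p = 0.00363). Eif2ak4 (GCN2), the kinase that senses uncharged tRNA, rose by 0.36 (adjusted p = 0.0323). Atf6, a sensor of the endoplasmic reticulum, fell, with 8.62, 8.78 and 8.60 in Sfpq-/-, 9.04, 8.97 and 9.14 in Sfpq+/-, and 9.02, 8.94 and 8.97 in control cortex (log2 change -0.31, adjusted p = 0.0262). The Atf6 arrays of Sfpq-/- lay below all the others. The calls of Atf6 and Eif2ak4 each failed in 5 of the 6 leave-one-array-out fits.

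In the wider folding and degradation list 2 of 24 rose. These were Wfs1, a membrane protein of the endoplasmic reticulum (log2 change 0.32, limma adjusted p = 0.00817), and Derl1, a component of the export channel for misfolded proteins (0.34, adjusted p = 0.027). Among cytosolic and mitochondrial chaperones 1 of 11 rose, Bag3, an Hsp70 cochaperone of selective autophagy. It read 9.09, 8.90 and 8.77 in Sfpq-/-, 8.21, 8.25 and 8.20 in Sfpq+/-, and 8.18, 7.98 and 8.14 in control cortex, a 1.76-fold rise against control (adjusted p = 0.000157). Each Sfpq-/- array was above all the others. Of 13 further cytosolic tRNA synthetases 0 passed, and the smallest p-values were those of Qars (0.26, adjusted p = 0.0681) and Eprs (0.23, adjusted p = 0.155).

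The calls of Bag3, Sesn2, Slc6a9, Eif2b3 and Wfs1 held in all 6 fits that left out 1 array. Those of Derl1, Ndrg1, Pck2 and Aldh1l2 were lost in 4, 2, 2 and 1 of the 6.

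**Figure D4:**
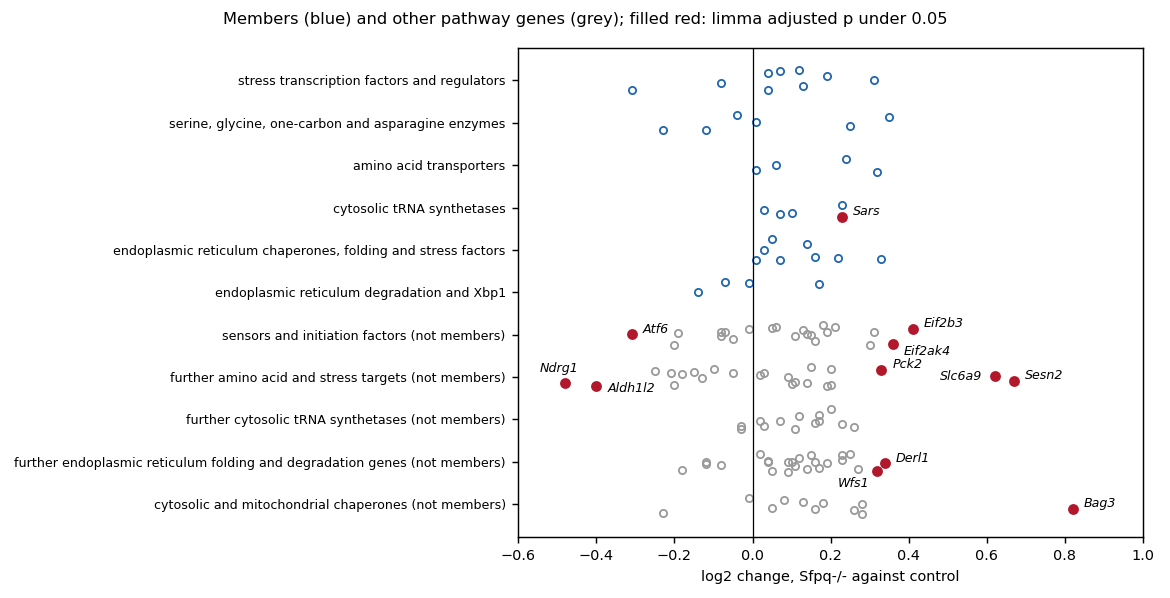
Log2 change of Sfpq-/- against control (x axis) for the 36 members in 6 role groups (blue circles) and the 93 other pathway genes in 5 lists (grey circles), 1 point per gene. Filled red points with names have a limma adjusted p under 0.05: Sars among the members, and 11 others of which Bag3, Sesn2 and Slc6a9 lie farthest to the right.

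Markers of another cell type moved with the Sfpq-/- group. Of 10 microglia and macrophage genes 7 rose in Sfpq-/- against control, where 5.98% of all genes rose, and their median log2 change was 0.303. The mean level of the list was 8.05 to 8.10 on Sfpq-/- arrays, 7.75 to 7.89 on Sfpq+/- arrays and 7.75 to 7.80 on control arrays. The lowest array value of the 10 was 6.08, for Aif1, near the limit for dim probe sets of 5.64. Of 7 vascular genes 1 rose, and of 7 meningeal, 5 choroid plexus and 4 erythroid genes 0 passed. All 7 vascular and all 7 meningeal genes were positive (medians 0.104 and 0.161), as were 56.8% of all genes. Of 8 ganglionic eminence genes 1 rose, Gad1 (log2 change 0.98, limma adjusted p = 0.0102). The mean level of that list was 9.44, 8.78 and 8.47 on control arrays 1 to 3, and 8.78 to 8.99 on Sfpq-/- arrays. The tissue taken may thus have differed between control arrays, which was not tested. The part of microglia and the other cell types in the values of Sars, Bag3, Sesn2 and Slc6a9 was not tested.

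Members spanned shorter stretches of the genome than the genes of the whole table. Their median span in RefSeq GRCm38.p6 was 13.8 kb, from 1.52 kb for Cebpb to 134 kb for Slc7a11, against 22.1 kb for 16707 genes with a span. A span of at least 100 kb was found for 1 of 36 members and for 2254 of those 16707 genes.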

How the data were processed

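Whole-transcript RNA signal was measured on 9 arrays. The authors deposited log2 signal per probe set. Per the submitters' processing notes the software was Affymetrix Expression Console, version 1.2.0.20, and the design text adds the Exon Array Computational Tool. The sources used here name no background, normalization or summary method. The log2 unit was read from the deposited values, and no further normalization was applied. The extraction notes name Sfpq+/- in 2 places and Sfpq-/- in none, so groups were taken from titles and genotype fields.

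Gene levels used probe sets with 1 gene symbol in the platform annotation (318760 of 1256831), with symbols updated through RefSeq (among members, Myd116 to Ppp1r15a and Armet to Manf). A probe set was kept if its 9-array mean exceeded 5.64, the median over the whole table. This left 628415 probe sets, of which 253544 had 1 gene symbol and could enter a gene. Genes needed at least 3 kept probe sets. Levels were tested over all 16854 genes with limma 3.58.1 (lmFit and eBayes, R 4.3.3) in 1 model with 3 group means, and called at a Benjamini-Hochberg adjusted p under 0.05. All 628415 kept probe sets, with or without a symbol, went through the same model. Precision is limited by having 3 arrays per group: the median SE of a member's change was 0.087 on the log2 scale. Same-numbered arrays of Sfpq-/- and control deviated together with correlations of 0.276, 0.00567 and 0.574, which does not establish pairing.

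The members, lists, motifs and naming rules were chosen with earlier results of these data known. All 36 members are named. Those past the threshold in any comparison, the 8 with the smallest p in Sfpq-/- against control, and Atf4, Ddit3, Xbp1 and Hspa5 are given array by array. Other pathway genes are named where they passed, or else the 2 with the smallest p in a list. Promoters and gene spans are RefSeq's for GRCm38.p6, matched by symbol. Alternatives covered the dim probe set filter, probe set summary, probe set minimum, quantile normalization, replicate block, array weights, groups in the fit, Xist as a covariate, and leaving out each array.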

Additional observations from a re-analysis of the deposited data

How the results depend on the processing

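No direction reversed for a called result, and the number of members called stayed small except under array weights. In Sfpq-/- against control, where 1 member passed, 0 passed with no filter, with at least 1 probe set or with only the 2 groups in the fit, 2 with Xist as a covariate (Manf and Phgdh), 3 with the stricter filter (Asns, Manf and Sars), and 0 to 2 when an array was left out. With the replicate block 5 passed (Asns, Manf, Phgdh, Sars and Slc3a2). Deviations of same-numbered Sfpq-/- and control arrays correlated at 0.276, 0.00567 and 0.574, which cannot decide whether the replicate numbers pair the samples. In Sfpq-/- against Sfpq+/-, where 1 passed, 0 passed with no filter, the median of probe sets, at least 1 probe set, Xist or only 2 groups, 2 passed with the replicate block (Phgdh and Psph), and 0 to 2 when an array was left out. Array weights estimated gene by gene, chosen after seeing the data because the planned estimate did not converge, gave 11 and 4 members, with 4609 and 3635 of all genes. Weights ran from 0.365 to 3.18. Genes called numbered 1311 (without Sfpq-/- 1) to 2453 in Sfpq-/- against control, with 1343 without control 2, and 1397 to 2267 against Sfpq+/-. In Sfpq+/- against control 1 gene passed with the stricter filter and 0 to 1 when an array was left out, and 0 members passed in all of these. Other pathway genes called, 11 in the fit reported, numbered 7 with the median of probe sets, 30 with array weights, and 5 to 18 when an array was left out. Members' median changes ran over 0.060 to 0.113, 0.016 to 0.084 and 0.003 to 0.050 in the 3 comparisons when an array was left out, and the Sfpq+/- median was 0.118 with Xist as a covariate. Of the alternative values for counts and medians, 113 stayed close to the value reported and 37 moved. The causes were not tested.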
